A study of Mus musculus with 4 samples.

Results

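Transcripts of 10 genes that mark endothelial cells, the cells that line blood vessels, were followed in primary mouse pancreatic acinar cell cultures that overexpressed ERRγ, an orphan nuclear receptor encoded by Esrrg, or, as the control, green fluorescent protein, GFP. The 10 genes were taken by symbol from the 23282 rows of each count table, and all 10 had a row. The cells came from the pancreas of C57BL/6J mice and were kept in Waymouth's medium with 2.5% fetal bovine serum and antibiotics, trypsin inhibitor and 25 ng/ml epidermal growth factor. Each culture received an adenovirus, Adenovirus-ERRgamma or Adenovirus-GFP, at a multiplicity of infection of 100 for 36 hours, and there were 2 libraries per virus, numbered 1 and 2. Adenoviruses enter many cell types, and the labels used here name no step that sorts cells by type. Whether libraries 1 and 2 of a virus are separate animals or cultures is not in the labels, and the spread behind each p-value may therefore be technical. Reads were counted at transcript ends, so a count was not divided by gene length.

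Endothelial cells grow and survive on vascular endothelial growth factor (VEGF), which they sense through the receptor kinases encoded by Kdr and Flt1, and their vessels are stabilised by angiopoietins acting on the receptor encoded by Tek, with Tie1 as its partner. They are held together by adhesion proteins encoded by Pecam1, Cdh5 and Esam. Plvap builds the diaphragms that span the pores of permeable capillaries, Emcn encodes a sialomucin of the endothelial surface, and Egfl7 encodes a secreted protein made mainly by endothelium. The exocrine pancreas and its islets are richly supplied with such permeable capillaries.

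The promoters of the VEGF receptor genes Kdr and Flt1, which had higher counts in both ERRγ libraries than in either GFP library, and of Emcn are shown out of 8 promoters searched for 2 motifs: Kdr and Emcn for a match and Flt1 for its higher counts with ERRγ. They are the 250 bases before the RefSeq start (GRCm38.p6), 5′ to 3′ on the gene's strand, and lie at chr5:75978456-75978705 on the minus strand for Kdr, chr5:147726012-147726261 on the minus strand for Flt1 and chr3:137340828-137341077 on the plus strand for Emcn. Capitals mark a match, on either strand, to AAGGTCA, the core of the element that ERR receptors bind, or to CCGGAA, a core bound by ETS factors. The match in Emcn is to AAGGTCA and the match in Kdr is to CCGGAA, both on the opposite strand.
Kdr: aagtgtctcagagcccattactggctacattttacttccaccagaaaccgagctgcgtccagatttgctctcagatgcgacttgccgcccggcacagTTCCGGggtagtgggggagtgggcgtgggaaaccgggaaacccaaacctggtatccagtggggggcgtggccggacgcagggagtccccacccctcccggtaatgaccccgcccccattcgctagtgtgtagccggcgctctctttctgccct
Flt1: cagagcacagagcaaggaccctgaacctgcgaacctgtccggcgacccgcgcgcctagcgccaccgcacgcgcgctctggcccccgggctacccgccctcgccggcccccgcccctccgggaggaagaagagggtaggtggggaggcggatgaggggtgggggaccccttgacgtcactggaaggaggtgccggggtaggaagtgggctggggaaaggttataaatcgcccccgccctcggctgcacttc
Emcn: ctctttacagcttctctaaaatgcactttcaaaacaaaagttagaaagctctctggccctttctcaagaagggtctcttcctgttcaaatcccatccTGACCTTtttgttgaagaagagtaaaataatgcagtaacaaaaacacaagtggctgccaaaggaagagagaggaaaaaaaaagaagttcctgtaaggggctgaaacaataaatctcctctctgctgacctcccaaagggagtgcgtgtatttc
The RefSeq table held 8 promoters for 6 of the 10 genes (Kdr, Flt1, Tek, Tie1, Emcn and Egfl7). AAGGTCA stood in 1 of these 8, the Emcn promoter, where its nearest base lay 147 bases before the start, and in 4.08% of 32851 promoters of the same length. CCGGAA stood in 1 of the 8, the Kdr promoter, with its nearest base 148 bases before the start, and in 12% of all. The letters AAGGTCA were thus absent from these windows of Kdr and Flt1. Their presence or absence was read from letters alone.

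The 10 transcripts were low in every library, with Tek at 0 counts in GFP library 2. Together they took 331 and 287 counts in ERRγ libraries 1 and 2 and 278 and 193 counts in GFP libraries 1 and 2. This was 31.6 counts per 1000000 of the library total (exact Clopper-Pearson 95% interval, 28.3 to 35.2), 27.0 (23.9 to 30.3), 27.5 (24.4 to 30.9) and 17.5 (15.1 to 20.2) in the same order. The intervals cover counting error only, as amplified reads without molecular identifiers are not independent molecules. GFP library 2 was the lowest, and GFP library 1 lay between the ERRγ libraries. Egfl7 and Esam together made up 45% to 60.1% of the summed count. In bulk RNA, fewer endothelial cells and less RNA of these genes per cell cannot be told apart.

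**Figure D1:**
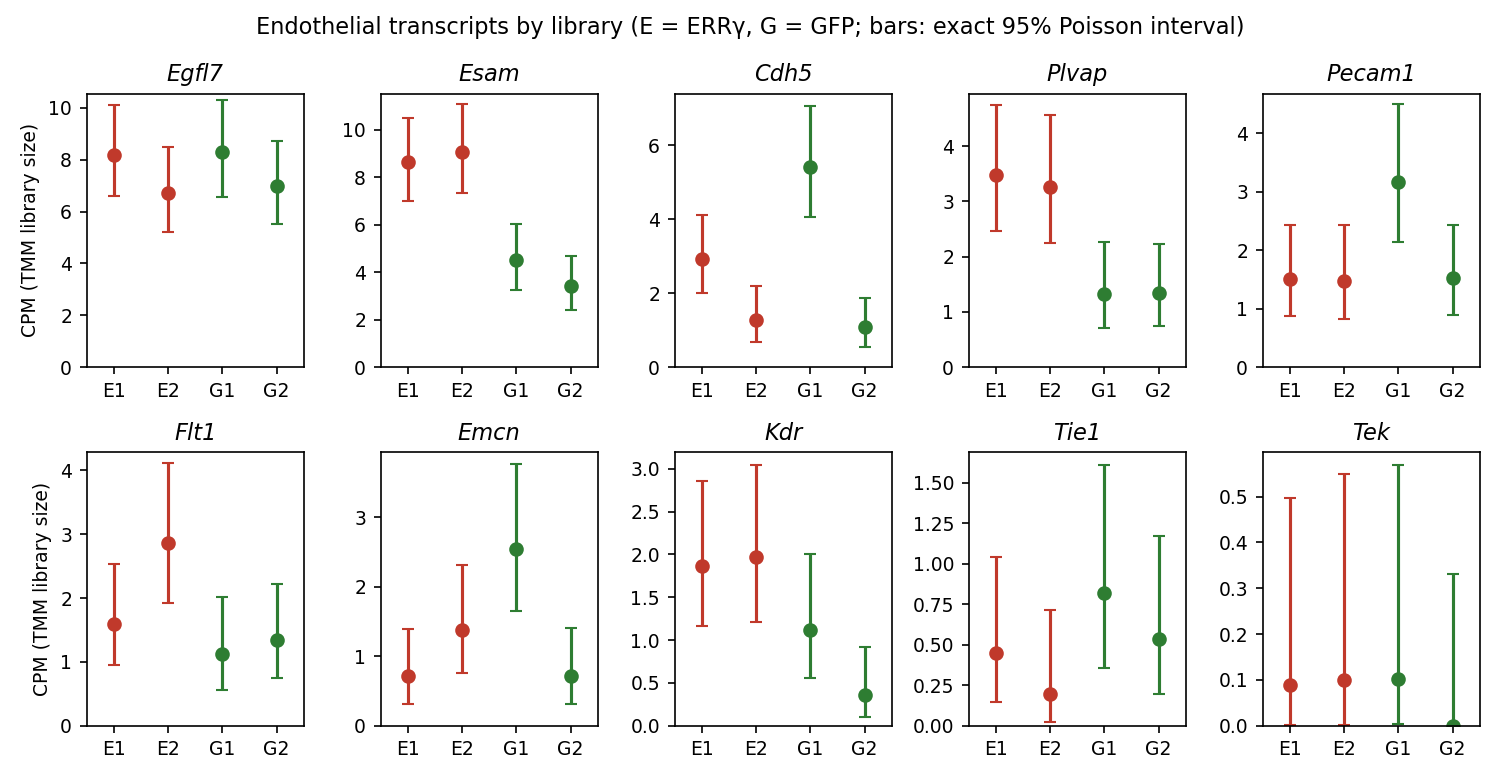
Level of each of the 10 endothelial transcripts in the 4 libraries, in counts per 1000000 on TMM library sizes, each panel from 0 with its own scale. Points are single libraries and bars are exact 95% Poisson intervals, which cover counting error only. Esam, Plvap, Kdr and Flt1 are higher in both ERRγ libraries than in either GFP library. Cdh5, Pecam1, Emcn, Tie1, Egfl7 and Tek are highest in GFP library 1, Egfl7 at 8.28 against 8.20 CPM in ERRγ library 1 and Tek at 1 count.

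The levels in CPM (counts per 1000000, on library sizes scaled by TMM) ran from 7.54 for Egfl7, the mean of 4 libraries, through Esam (6.41), Cdh5 (2.68), Plvap (2.35), Pecam1 (1.92), Flt1 (1.73), Emcn (1.34), Kdr (1.33) and Tie1 (0.50) to Tek (0.072). Of the 9 pairs of neighbours in this order, 8 had ranges over the 4 libraries that overlapped, and Tie1 above Tek was the pair that did not. Egfl7 stood above 28% of the 13070 rows tested and Kdr above 5.2%. A floor of 3 counts was 0.267 to 0.307 CPM, so Tek lay under the floor in all 4 libraries and Tie1 in 1 of them, ERRγ library 2.

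Among the VEGF receptors, Kdr (VEGF receptor 2, the main signalling receptor; chromosome 5, 75932827 to 75978458, minus strand, GRCm38) had 21 and 20 counts in ERRγ libraries 1 and 2 and 11 and 4 in GFP libraries 1 and 2. Both ERRγ libraries were above both GFP libraries, and the GFP libraries differed from each other by 3.13 times in CPM (0.929 to 13.5, exact 95% counting interval). Its level was 1.92 ± 0.0721 CPM for ERRγ and 0.741 ± 0.541 CPM for GFP (SD, n = 2), a log2 fold change of 1.38 (SE 0.71; 95% interval −0.26 to 3.02) that did not pass edgeR's quasi-likelihood test (adjusted p = 0.29). Leaving out a GFP library moved the log2 fold change of Kdr to 2.38 (library 1 out) or 0.77 (library 2 out). Flt1 (VEGF receptor 1, which binds VEGF tightly and also occurs as a soluble decoy; chromosome 5, 147561604 to 147726011, minus strand) had 18 and 29 counts against 11 and 15. The groups of Flt1 did not overlap, and ERRγ library 2 was the highest. Its log2 fold change of 0.84 (SE 0.58; −0.51 to 2.19) did not pass (adjusted p = 0.436), and it was 0.37 without ERRγ library 2.

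The angiopoietin receptor genes were the rarest of the 10. Tek (TIE2; chromosome 4, 94739289 to 94874976, plus strand) had 1, 1, 1 and 0 counts in ERRγ libraries 1 and 2 and GFP libraries 1 and 2, so no fold is given. Tie1 (chromosome 4, 118471191 to 118490061, minus strand) stood at 5 and 2 counts with ERRγ, against 8 and 6 with GFP. The ERRγ libraries of Tie1 were the lower ones, with 7 counts against 14 in all, a CPM ratio of 0.49 whose exact 95% counting interval was 0.167 to 1.3. Tie1 and Tek were under the filter on low counts. In a fit with no filter the log2 fold change of Tie1 was −1.04 (SE 1.40; edgeR adjusted p = 0.766).

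The 3 junction genes had estimates of different sign. Esam, an immunoglobulin-family adhesion molecule of endothelial tight junctions (chromosome 9, 37528078 to 37538319, plus strand), was counted 97 and 92 times with ERRγ, against 44 and 38 times with GFP. The libraries of each virus lay close together, and the groups were apart, with 8.86 ± 0.307 CPM for ERRγ and 3.95 ± 0.771 CPM for GFP (SD, n = 2). The log2 fold change of Esam was 1.17 (SE 0.33; 95% interval 0.40 to 1.94), with an unadjusted p of 0.00821 and an adjusted p of 0.0818 by edgeR's quasi-likelihood test. This was the smallest p of the 8 genes tested and missed the threshold of 0.05 over all rows. Esam passed with no filter on low counts (edgeR adjusted p = 0.024), in a fit where more rows passed over all genes. There 1271 of 17888 rows rose and 738 fell, against 661 and 233 of 13070 rows with the filter. The adjusted p was 0.125 with DESeq2. Dropping ERRγ library 1, which leaves a single ERRγ library, put the estimate for Esam at 1.20. Across all 9 alternatives the adjusted p of Esam ran from 0.024 to 0.364 and its log2 fold change from 0.98 to 1.37.

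Pecam1, which encodes the junctional adhesion molecule CD31 (chromosome 11, 106654217 to 106750628, minus strand), stood at 17 and 15 counts with ERRγ, against 31 and 17 with GFP. GFP library 1 stood above the 3 others, which were within 1.48 to 1.52 CPM of each other. The log2 fold change of Pecam1 was −0.64 (SE 0.58; edgeR adjusted p = 0.568), and −0.03 without GFP library 1. Cdh5, which encodes vascular endothelial cadherin, the defining adhesion protein of endothelial adherens junctions (chromosome 8, 104101625 to 104144511, plus strand), stood at 33 and 13 counts with ERRγ, against 53 and 12 with GFP. Library 1 of each virus was the higher one: the ratio of library 1 to library 2 was 2.29 with ERRγ (1.17 to 4.75) and 5.03 with GFP (2.66 to 10.4), in exact 95% counting intervals. The groups of Cdh5 overlapped. Its log2 fold change was −0.60 (SE 0.78; −2.39 to 1.20; edgeR adjusted p = 0.701) and changed sign to 0.97 without GFP library 1.

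Of the surface proteins, Plvap (chromosome 8, 71497765 to 71511752, minus strand) was counted 39 and 33 times with ERRγ, against 13 and 15 times with GFP. The libraries of each virus again lay close together, at 3.37 ± 0.155 CPM for ERRγ and 1.34 ± 0.0115 CPM for GFP (SD, n = 2). The log2 fold change of Plvap was 1.33 (SE 0.49; 95% interval 0.19 to 2.46), with an unadjusted p of 0.0275 and an edgeR adjusted p of 0.157, and it kept between 1.28 and 1.37 when any single library was left out. The last 1819 bases of Plvap are overlapped by Gtpbp3, a coding gene on the opposite strand, and the sources used here do not say whether counting used strand. Gtpbp3 itself had 96, 79, 69 and 110 counts in ERRγ libraries 1 and 2 and GFP libraries 1 and 2, and its groups overlapped. Emcn (chromosome 3, 137341067 to 137432185, plus strand) stood at 8 and 14 counts with ERRγ, against 25 and 8 with GFP. GFP library 1 was again the highest, at 3.56 times the level of GFP library 2 (1.56 to 9.14), and the groups overlapped. The log2 fold change of Emcn was −0.63 (SE 0.78; edgeR adjusted p = 0.684), and 0.53 without GFP library 1.

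Egfl7 (chromosome 2, 26580014 to 26593120, plus strand) was the most abundant of the 10 and the most even. It stood at 92 and 68 counts with ERRγ, against 81 and 78 with GFP, or 7.45 ± 1.05 and 7.63 ± 0.908 CPM (SD, n = 2). The log2 fold change of −0.03 (SE 0.31; 95% interval −0.74 to 0.67; edgeR adjusted p = 0.967) had an interval that excluded a doubling, and its sign changed with library totals (0.007), without ERRγ library 2 (0.102) and without GFP library 1 (0.088). The end of Egfl7 is covered by Gm20532, a coding model on the same strand, and by the last 64 bases of Agpat2, a lipid synthesis gene on the opposite strand. Agpat2 rose from 646 and 838 counts with GFP to 1576 and 1324 with ERRγ (log2 fold change 0.94, edgeR adjusted p = 0.00865), and the part of its reads in the counts of Egfl7 was not tested. Over the 4 libraries, the rows whose mean-centred log2 CPM lay closest to those of Egfl7 were Larp1, Snx18 and Rars2, at root mean square distances of 0.017, 0.018 and 0.019, among 13069 candidates.

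Of the 10 genes, 8 passed the filter on low counts, and 0 of these 8 passed the threshold with edgeR's quasi-likelihood test or with DESeq2, where 6.84% of the 13070 rows tested passed with edgeR (5.06% higher and 1.78% lower with ERRγ) and 8.19% of 13379 rows with DESeq2. At an unadjusted p under 0.05 there were 2 of 8 (Esam and Plvap), against 23.1% of all rows. In 4 of the 8 (Esam, Plvap, Kdr and Flt1) both ERRγ libraries were above both GFP libraries, against 27.4% of all rows, and in 1 (Pecam1) both were below, against 26.6%; in either direction this is 5 of 8, against 54%. The median log2 fold change was 0.40 for the 8 and −0.01 for all rows. These counts are small and near the background, and they are given as a description. In 6 of the 8 the 95% interval of the log2 fold change, not adjusted over rows, reached more than 1 to either side of the estimate. The estimates of these 6 were thus uncertain by more than 2-fold in each direction. Esam was not among the 6, and it still missed the threshold at a log2 fold change of 1.17 (edgeR adjusted p = 0.0818). Esrrg, the gene that the virus carried, had 1453 and 12994 counts in ERRγ libraries 1 and 2, or 9.9 times as many CPM in library 2.

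**Figure D2:**
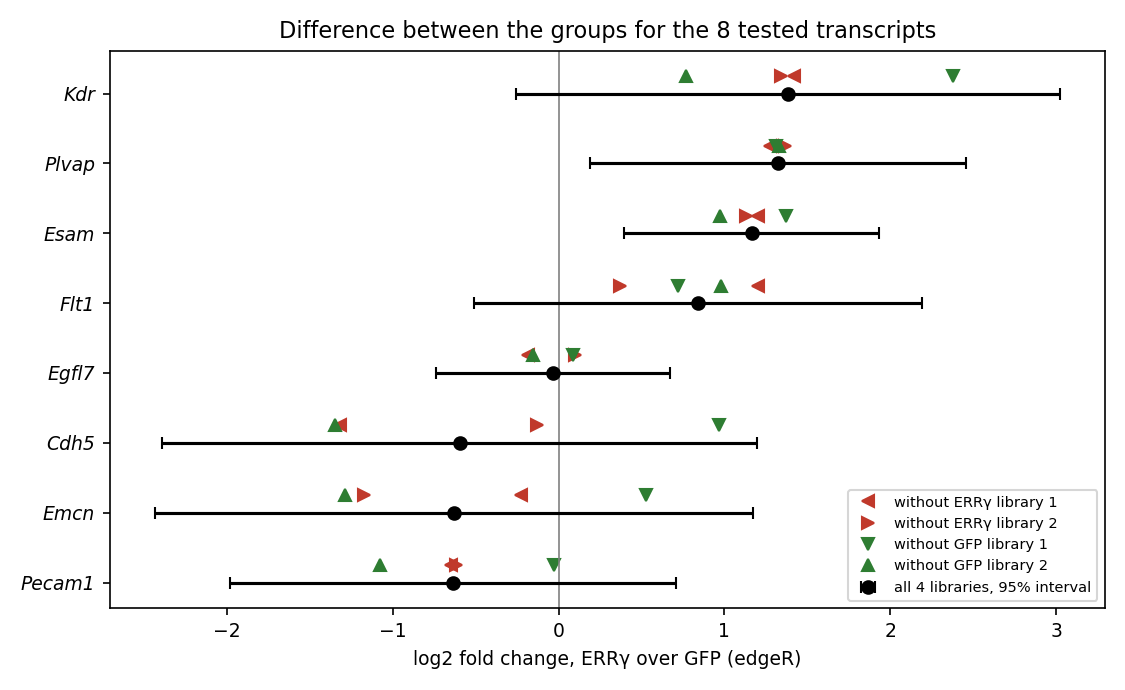
Log2 fold change of ERRγ over GFP for the 8 endothelial transcripts that passed the filter, from edgeR. Black points with bars are estimates from all 4 libraries with their 95% intervals, and triangles are fits with 1 library left out. The triangles of Plvap, Esam, Kdr and Flt1 stay to the right of 0 and those of Pecam1 to the left. Those of Cdh5, Emcn and Egfl7 lie on both sides of 0.

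The endothelial genes that were highest in GFP library 1 shared this with transcripts of other cell types of the pancreas. Of the 8 tested endothelial genes, 4 (Cdh5, Pecam1, Emcn and Egfl7) had their highest CPM in GFP library 1, against 25.7% of all rows tested. For Egfl7 this was 8.28 CPM against 8.20 CPM in ERRγ library 1, where its raw count was the higher one (92 against 81). Also highest in GFP library 1 were 7 of 8 islet markers, 6 of 10 acinar markers, 6 of 12 ductal markers and 4 of 8 stellate and fibroblast markers. The same held for 6 of 19 further endothelial genes, 9 of 24 angiogenic ligands and co-receptors, 2 of 7 pericyte and smooth muscle markers and 1 of 3 leukocyte markers. The median ratio of GFP library 1 to GFP library 2 was 1.66 for the endothelial genes, 5.85 for the islet markers, 1.86 for the acinar markers, 1.18 for the stellate and fibroblast markers, 1.27 for the pericyte and smooth muscle markers, 0.998 for the ductal markers and 0.996 for all rows. Between ERRγ libraries 1 and 2 the median ratios were 0.987 for the endothelial genes, 4.13 for the islet markers and 1.39 for the acinar markers. Cdh5 was higher in library 1 of each virus, as the median islet marker was, and Emcn was higher in library 1 with GFP only. The part of these other cell types' tissue in the endothelial counts was not tested.

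**Figure D3:**
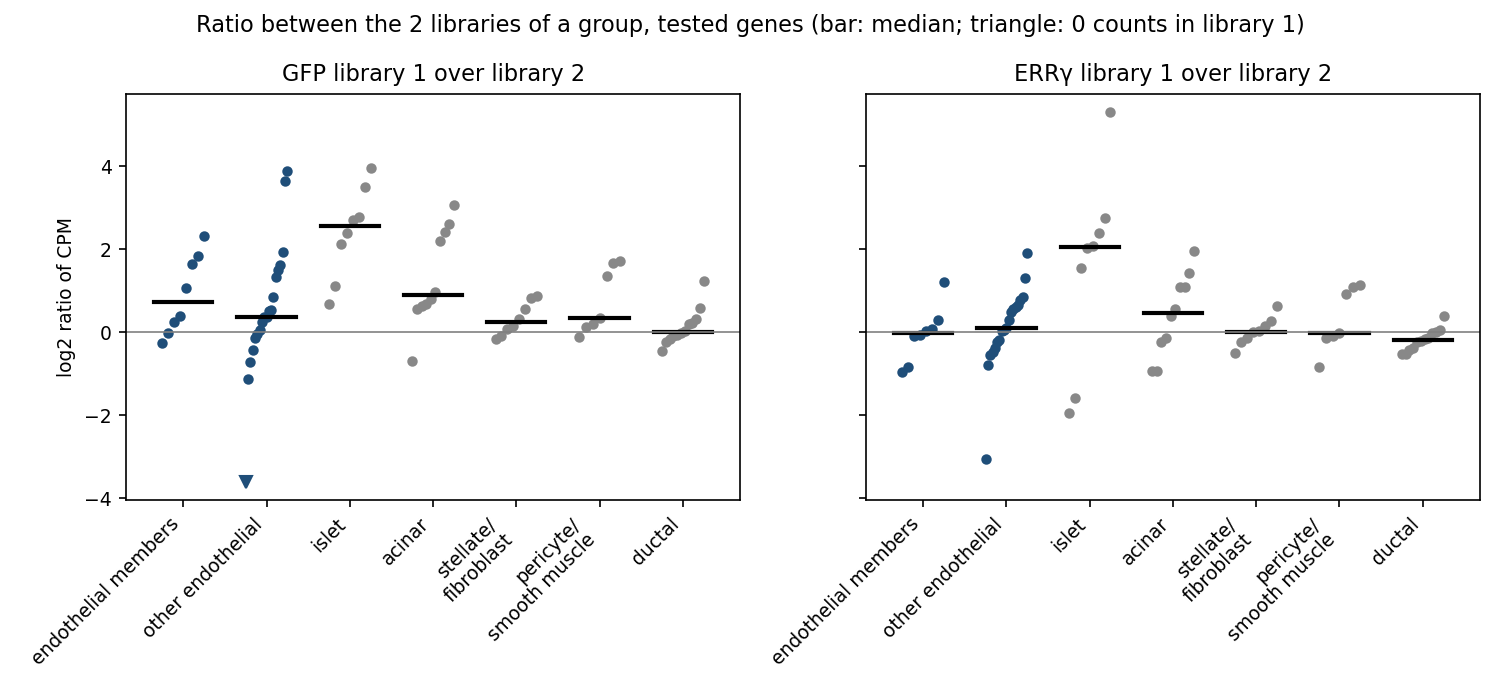
Log2 ratio of CPM between library 1 and library 2 of each virus, for the tested genes of 7 marker lists. Dots are genes, bars are list medians and a triangle is a gene with 0 counts in library 1. With GFP the endothelial median lies above 0 and below the islet median; with ERRγ the endothelial median is near 0 and the islet median is again high.

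The summed levels of the other marker lists set the scale for the endothelial genes. The 10 endothelial genes summed to 28.3 to 29.5 CPM with ERRγ and 17.3 to 28.4 CPM with GFP. The 12 ductal markers summed to 8470 to 10100 CPM with ERRγ and 12700 to 12800 CPM with GFP. The 10 stellate and fibroblast markers summed to 578 to 657 and 528 to 769 CPM, with Dpt at 0 in 3 of the 4 libraries and Pi16 at 0 in both GFP libraries. The 10 pericyte and smooth muscle markers, a cell type that wraps vessels, summed to 39.3 to 46.5 and 59.6 to 70.8 CPM, and the defining pericyte gene Rgs5 had 8, 13, 10 and 9 counts. Without Mcam the pericyte and smooth muscle sum was 22.5 and 14.9 CPM in the ERRγ libraries and 17.8 and 10.8 CPM in the GFP libraries, which overlapped. The 15 acinar markers summed to 93 to 101 and 52.5 to 100 CPM, with Ptf1a, the gene of a factor that defines acinar cells, at 0 in all libraries. This sum covers these 15 genes only, and other transcripts of the labelled cell type were not summed. In the ductal list Krt8 (2721 to 4679 CPM over the 4 libraries) and Krt18 (2178 to 3371 CPM) were the 2 highest. The part of the labelled acinar cells in the ductal sum was not tested. The 12 islet markers summed to 30.5 to 51.6 and 32.3 to 198 CPM. The 12 leukocyte markers summed to 49.5 to 74.2 and 91.6 to 95.7 CPM, with the pan-leukocyte gene Ptprc at 0, 0, 1 and 0 counts. Without Cd14 the leukocyte sum was 7.4 and 15.9 CPM in ERRγ libraries 1 and 2 and 9.61 and 10.6 CPM in the GFP libraries, so that the groups overlapped. Of the endothelial genes with higher counts in both ERRγ libraries, none of which passed the threshold, Esam is also known from platelets and Flt1 from macrophages and trophoblast. The part of such cells in these counts was not tested.

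In a list of 36 further endothelial genes, 2 of 19 tested genes rose with ERRγ, 0 fell (against 5.06% and 1.78% of all rows) and 17 did not pass (median log2 fold change 0.19), while 17 were under the filter. Most of the list was rare: 22 of the 36 had fewer than 20 counts in every library, as Tie1 and Tek did among the 10, 2 (Sele and Mmrn1) had none, and 8 had at least 100 counts in some library. Of the rare ones, picked after their values were seen, Vwf, which encodes von Willebrand factor, had 0, 5, 4 and 0 counts in ERRγ libraries 1 and 2 and GFP libraries 1 and 2. The tight-junction gene Cldn5 had 2, 1, 9 and 1 counts and the ETS factor gene Erg 1, 1, 5 and 0. Other genes of the list were not rare: Eng had 232, 136, 237 and 259 counts, Sox17 had 529, 303, 325 and 384 and Flt4 had 110, 138, 121 and 151. Across the 19 tested genes of the list 6 were highest in GFP library 1 and 11 in an ERRγ library. Ly6c1, a surface antigen gene of endothelium among other cell types, rose from 469 and 414 counts with GFP to 2334 and 2729 with ERRγ (log2 fold change 2.49, SE 0.19, edgeR adjusted p = 0.000526). Its close relative Ly6c2 had 18 and 18 counts with GFP and 156 and 175 with ERRγ, and the pair may share reads. Notch4, a Notch receptor found mainly in endothelium, rose from 25 and 24 to 154 and 135 counts (log2 fold change 2.52, SE 0.31, edgeR adjusted p = 0.00473). Its call ended with either GFP library left out, in fits where far fewer rows passed over all genes. The log2 fold change of Notch4 was then 2.64 (library 1 out) and 2.40 (library 2 out). Nos3, the endothelial nitric oxide synthase gene, had 1012, 881, 700 and 1072 counts (log2 fold change 0.08, SE 0.17, edgeR adjusted p = 0.827), far above any of the 10 genes, and Atg9b on the opposite strand overlaps its end with 1318, 1169, 874 and 1297 counts.

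Vegfa and Vegfb were more abundant than their receptor genes Kdr and Flt1. In a list of 29 angiogenic ligands and co-receptors, 24 were tested, 2 rose, 3 fell (against 5.06% and 1.78% of all rows) and 19 did not pass (median log2 fold change 0.16). Vegfa, the ligand of Kdr and Flt1, stood at 4305 and 10233 counts with ERRγ, against 2599 and 3102 with GFP, so that ERRγ library 2 stood apart. Its log2 fold change of 1.36 (SE 0.38) did not pass (edgeR adjusted p = 0.0739). With DESeq2 the adjusted p was 0.234. Vegfa passed in edgeR with library totals (0.0387), with no filter (1.14e-14) and with the replicate number as a block (0.03). Its SE was 0.159 with no filter, against 0.375 with the filter and 0.652 with DESeq2. The ERRγ libraries stood at 383.6 and 1010 CPM, so the p-value with no filter holds little of the spread between libraries. Dropping 1 library moved the log2 fold change to 1.89 (ERRγ library 1), 0.50 (ERRγ library 2), 1.32 (GFP library 1) or 1.39 (GFP library 2). Vegfb, which binds Flt1 but not Kdr, rose from 147 and 160 to 299 and 281 counts (log2 fold change 0.89, SE 0.19, edgeR adjusted p = 0.0302). Nrp2, a co-receptor for VEGF and semaphorins, rose from 107 and 103 to 264 and 186 counts (log2 fold change 1.06, SE 0.24, edgeR adjusted p = 0.0398).

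Of the 3 that fell, Angptl4, which encodes a lipase inhibitor secreted in response to fasting and low oxygen, went from 946 and 1119 to 475 and 367 counts (log2 fold change −1.33, SE 0.15, edgeR adjusted p = 0.00272). Thbs1, the gene of the angiogenesis inhibitor thrombospondin 1, went from 5662 and 4990 to 3209 and 1984 counts (log2 fold change −1.09, SE 0.21, edgeR adjusted p = 0.0231). Sema3c, a secreted semaphorin gene, went from 1505 and 1523 to 975 and 844 counts (log2 fold change −0.77, SE 0.14, edgeR adjusted p = 0.016). The calls of Angptl4 and Ly6c1 held in all 9 alternatives. With GFP library 1 or GFP library 2 left out, far fewer rows passed over all genes. The calls of Vegfb, Nrp2, Thbs1 and Sema3c ended in both of these fits. The log2 fold changes were then 0.92 and 0.85 for Vegfb and 1.18 and 0.94 for Nrp2. They were −0.90 and −1.27 for Thbs1 and −0.69 and −0.86 for Sema3c. With library totals the call of Nrp2 ended too (edgeR adjusted p = 0.0539). Of the angiopoietin genes, Angpt1 was as rare as Tie1 and Tek and Angpt2 was not: Angpt1 had 0, 2, 2 and 4 counts in ERRγ libraries 1 and 2 and GFP libraries 1 and 2, and Angpt2 had 59, 47, 46 and 39.

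**Figure D4:**
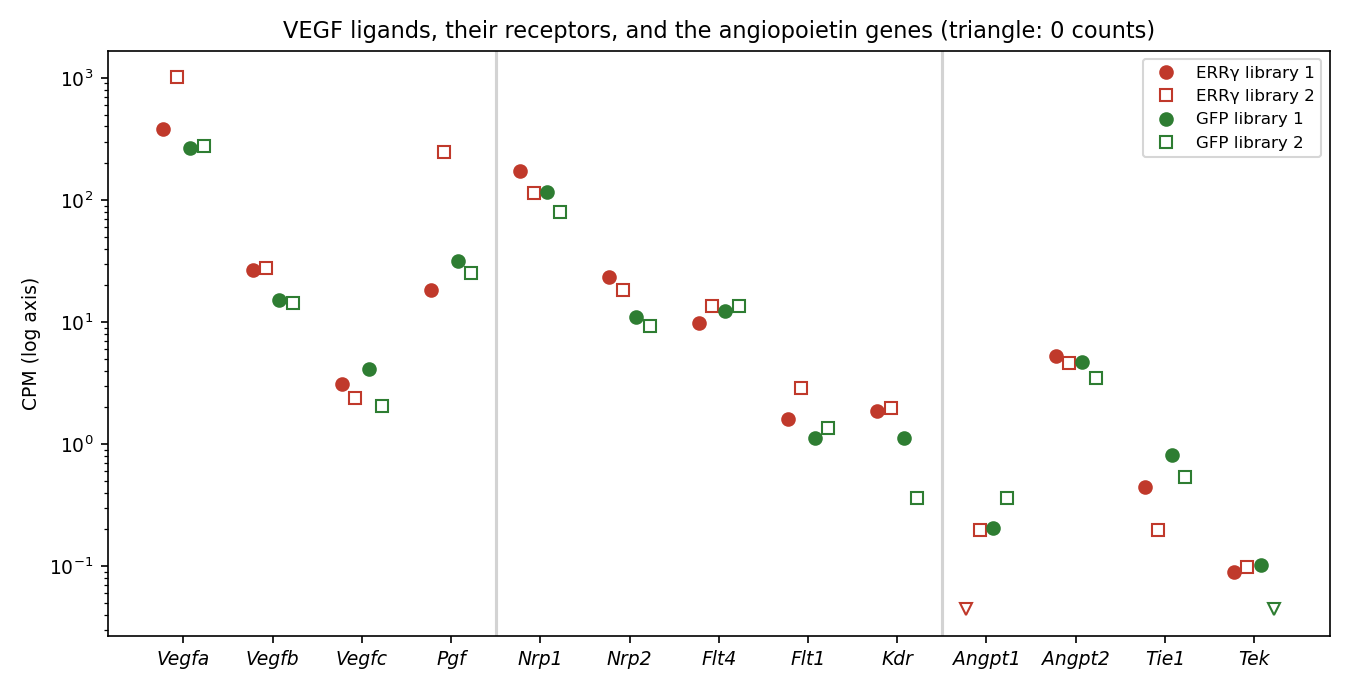
Levels of VEGF ligands (left), their receptors and co-receptors (middle) and the angiopoietin ligands and receptors (right) in each library, in CPM on a log axis; a triangle at the bottom is a library with 0 counts, placed for display. Vegfa runs from 266 to 1010 CPM over the 4 libraries, whereas Kdr runs from 0.359 to 1.97 CPM and Flt1 from 1.12 to 2.86 CPM, and Pgf and Vegfa are highest in ERRγ library 2.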

How the data were processed

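Transcript ends were sequenced with Lexogen's QuantSeq kit (input 500 ng of total RNA), per the labels' protocols. The deposited files hold read counts per gene symbol, 1 table per library, with no normalization by the authors. The submitters' processing notes name Bowtie2, edgeR and mm10, with no version of either tool. For the counter, annotation and strand setting the entry is: not given in the sources used here. Totals were 10480878 and 10645277 counts (ERRγ libraries 1 and 2) and 10105604 and 11012351 (GFP libraries 1 and 2). The 35 symbols on repeated rows were kept apart.

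Rows kept by filterByExpr (minimum count 10; 13070 rows) were scaled by TMM and tested with edgeR 4.0.16 (R 4.3.3) by glmQLFit and glmQLFTest on group alone, two-sided, with Benjamini-Hochberg adjustment over all rows and a threshold of 0.05. The SE is the log2 fold change over the square root of F. Alternatives were DESeq2 1.42.0, RLE factors, library totals, no filter, a replicate block and leaving out each library. Scripts were tested on simulated data. Positions are GENCODE M21 on GRCm38 (mm10). All 10 genes were named, and from the other lists the members past the threshold (at most 5) and the 2 with the highest CPM. Further genes of these lists, such as Vwf, Eng, Rgs5, Ptprc, Ptf1a and Angpt1, were named outside this rule. Members and lists were chosen with earlier results of these data known.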

Additional observations from a re-analysis of the deposited data

How the results depend on the processing

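Of 72 values of the endothelial genes' log2 fold changes under the alternatives, 65 kept their direction and side of the threshold, 5 changed sign and 2 passed it. Those that changed sign were Egfl7 with library totals (0.007), without ERRγ library 2 (0.102) and without GFP library 1 (0.088), and without GFP library 1 also Cdh5 (0.967) and Emcn (0.528). With a library left out, the log2 fold change ran from -0.184 to 0.102 for Egfl7, -1.349 to 0.967 for Cdh5, -1.286 to 0.528 for Emcn and 0.975 to 1.371 for Esam. Esam passed with no filter (1.157, edgeR adjusted p = 0.024) and without ERRγ library 1 (1.202, adjusted p = 0.0332), so the number of endothelial genes called was 0 in the 4-library fit with the filter, 1 with no filter and 0 to 1 when a library was left out. Among the other named genes the sign changed when a library was left out, with ranges of -0.123 to 0.306 for Nos3, -0.55 to 0.277 for Col1a2, -0.458 to 0.189 for Col1a1, -0.967 to 0.49 for Cd68, -0.191 to 0.952 for Pdgfrb and -2.441 to 0.479 for Iapp. Over all rows, 661 rose and 233 fell; with no filter 1271 rose and 738 fell, and with a library left out 92 to 1597 rose and 7 to 1098 fell. The lone library of an arm then gives no spread of its own, and the SE need not follow the pair of the other arm. Without ERRγ library 1 the SE of Ins2 was 0.306, although its GFP libraries stood at 61.0 and 11.65 CPM. The summed endothelial share was 29.3 ± 3.27 counts per 1000000 with ERRγ and 22.5 ± 7.06 with GFP (SD, n = 2); 21.7 and 15 without Egfl7; 32.6 and 25.8 of the total without the pre-ribosomal RNA Rn45s; and 27 to 31.6 and 17.5 to 27.5 with a library left out. The labels do not say that equal replicate numbers mark a shared animal or day, and deviations of same-numbered libraries had a correlation of 0.0093 across rows. Of the angiogenic ligands and co-receptors, 5 of 24 passed with edgeR (against 6.84% of all rows) and 8 of 25 with DESeq2 (against 8.19%). With the replicate block 776 rows rose and 315 fell, and 0 endothelial genes passed, while Vegfa (1.197), Ins2 (-2.03) and Iapp (-1.19), which missed the threshold without it, passed. The median count over 10 genes and 4 libraries was 16; how far depth and the spread between libraries each set the width of the intervals was not tested.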

Other observations

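Genes of other cell types that could share the cultures with endothelium gave the following values in edgeR's quasi-likelihood test. Over all rows tested, 5.06% rose and 1.78% fell past the threshold, and 23.1% had an unadjusted p under 0.05. With DESeq2 8.19% of rows passed. Mcam, an adhesion molecule of pericytes, smooth muscle and endothelium, was the 1 of 7 tested pericyte and smooth muscle markers that passed, and it fell from 519 and 545 to 269 and 247 counts (log2 fold change −1.08, SE 0.15, adjusted p = 0.00635). Pdgfrb in that list had 81, 33, 35 and 43 counts in ERRγ libraries 1 and 2 and GFP libraries 1 and 2 (0.50, adjusted p = 0.578). Of 8 tested stellate and fibroblast markers 0 passed, and 1 (Col3a1) had an unadjusted p under 0.05 (0 passed with DESeq2); Col1a1 and Col1a2 had log2 fold changes of −0.11 and −0.19. Of 3 tested leukocyte markers, Cd14, a lipopolysaccharide co-receptor, fell (−0.74, adjusted p = 0.0488), and Cd68 stood at −0.07 (adjusted p = 0.957).

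Of 10 tested acinar markers the trypsinogen gene Prss2, which has near-identical relatives, rose from 37 and 24 to 157 and 271 counts (2.78, adjusted p = 0.00905), and Ctrb1 did not pass (0.34, adjusted p = 0.366). Of 12 tested ductal markers 3 fell (against 1.78% of all rows), the keratin genes Krt7 (−0.65) and Krt8 (−0.66) and the mucin gene Muc1 (−0.62). The chloride channel gene Cftr was the 1 that rose (1.25, against 5.06% of all rows that rose), and Krt18 did not pass (−0.41, adjusted p = 0.173). Of 8 tested islet markers 0 passed, with Ins2 at −2.09 (adjusted p = 0.164) and Iapp at −1.48 (adjusted p = 0.308), and 0 passed with DESeq2. In edgeR 4 of the 8 had an unadjusted p under 0.05, against 23.1% of all rows (Ins1, Ins2 and Pcsk2 lower and Nkx6-1 higher with ERRγ). The edgeR adjusted p of Ins2 fell under the threshold with no filter (3.03e-15) and with the replicate number as a block (0.00118). That of Iapp did so too (2.83e-07 and 0.0488). With no filter the SE of Ins2 was 0.243, against 0.788 with the filter, although its GFP libraries stood at 61.0 and 11.65 CPM. The p-values with no filter thus hold little of the spread between libraries. Without GFP library 1 the log2 fold change was −0.46 for Ins2 and 0.48 for Iapp. Without ERRγ library 1 or 2 it was −3.47 or −1.41 for Ins2 and −2.44 or −0.91 for Iapp. Without GFP library 1 or GFP library 2 the calls of Mcam, Cd14, Prss2, Krt7, Krt8, Muc1 and Cftr ended. In these fits far fewer rows passed over all genes. The calls of Cd14 with RLE factors (edgeR adjusted p = 0.0504) and Cftr with library totals (0.0569) ended too.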
